A study of Mus musculus with 31 samples.

Results

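Myelin is the multilayered membrane that oligodendrocytes wrap around axons in the central nervous system, and the transcripts of its structural proteins are among the most abundant in brain tissue. The 9 genes described here, Mbp, Mog, Mag, Mobp, Cnp, Mal, Cldn11, Opalin and Ermn, encode proteins of the myelin sheath or of the mature oligodendrocyte, and they were chosen by symbol from the 15648 genes of the count table, in which all 9 were found. The choice was made with earlier results of these data known. At 5 days (d) after rAAV-OVA injection Mal fell by 57.5% against rAAV-control mice in the fitted model and Cnp fell by 43.0%, with Mog, Opalin and Mbp between them, while the difference of Ermn was -7.54% and was not called. Without the model's estimated covariates the differences were smaller, and 2 of the 9 genes, Mal and Mog, were called at 5 d, beside 17.5% of all genes. At 2 d and at 28 d, 0 of the 9 genes were called, beside 0% and 17.6% of all genes. At 8 d 1 gene, Opalin, was called lower, beside 0.588% of all genes, and this call was lost in 16 of 31 fits that left out 1 mouse.

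Bulk RNA-seq was performed on the left hippocampus of 31 adult OT-I/Rag-/- mice, 1 library per mouse, at 2, 5, 8 and 28 d after bilateral injection into dorsal CA1. All mice, controls included, carry the OT-I transgene for a CD8+ T cell receptor that recognises ovalbumin (OVA) and lack RAG1, so that they form no T or B cells with receptors of their own. The rAAV-OVA mice received rAAV-hSyn-OVA-mCherry and the rAAV-control mice rAAV-hSyn-mCherry, in which the human synapsin promoter, active in neurons, drives the transgene. Each vector and time point held 4 mice, apart from rAAV-control at 8 d with 3 mice. Batch 1 of the labels holds 23 mice and batch 2 holds 8 mice: all mice at 5 and 8 d were in batch 1, and each group at 2 and 28 d had 2 mice of each batch. Libraries held 19046977 to 57407902 counts (median 27024978), and the lowest count of any of the 9 genes in any mouse was 199, for Opalin. Fewer oligodendrocytes in the tissue and less RNA per oligodendrocyte cannot be told apart in bulk samples.

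Oligodendrocytes arise from precursor cells, and on maturation they switch on the genes of the sheath together, under transcription factors such as SOX10 and MYRF. In the sheath, basic proteins hold the cytoplasmic faces of the membrane together, tetraspan proteins organise its lipid domains and seal its margins, and immunoglobulin-like proteins stand on its inner and outer surface. In the hippocampus, myelinated fibres are dense in the alveus and the fimbria, which border the lateral ventricle and its choroid plexus.

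The promoters of 4 genes are shown to set 3 genes called lower at 5 d, Mal, Mog and Cnp, beside Ermn, which had the smallest difference. RefSeq's table (GRCm38.p6) held promoters for 8 of the 9 genes, all but Mbp. The 250 bases before the start site are given in the direction of the gene, for Mal on the minus strand at chr2:127656696-127656945, for Mog on the minus strand at chr17:37023399-37023648, for Cnp on the plus strand at chr11:100574689-100574938 and for Ermn on the minus strand at chr2:58052865-58053114. Capitals mark the words ACAAAG and ACAATG, which SOX factors bind, and CTGGCAC and CTGGTAC, which MYRF binds, read on either strand. None of these words overlapped another in the 4 sequences.
Mal: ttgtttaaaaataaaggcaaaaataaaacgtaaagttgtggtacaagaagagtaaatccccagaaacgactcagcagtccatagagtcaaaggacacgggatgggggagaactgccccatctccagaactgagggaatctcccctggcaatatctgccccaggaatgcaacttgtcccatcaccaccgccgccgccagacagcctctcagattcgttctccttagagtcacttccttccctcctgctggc
Mog: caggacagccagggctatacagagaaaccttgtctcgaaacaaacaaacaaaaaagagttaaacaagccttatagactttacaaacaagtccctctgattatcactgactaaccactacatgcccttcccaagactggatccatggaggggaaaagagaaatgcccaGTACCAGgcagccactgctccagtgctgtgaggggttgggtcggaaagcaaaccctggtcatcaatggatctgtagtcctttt
Cnp: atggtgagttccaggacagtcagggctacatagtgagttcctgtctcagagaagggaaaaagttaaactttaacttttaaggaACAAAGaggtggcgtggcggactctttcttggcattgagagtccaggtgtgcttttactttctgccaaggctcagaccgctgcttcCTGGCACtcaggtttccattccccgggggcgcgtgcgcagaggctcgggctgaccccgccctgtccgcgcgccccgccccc
Ermn: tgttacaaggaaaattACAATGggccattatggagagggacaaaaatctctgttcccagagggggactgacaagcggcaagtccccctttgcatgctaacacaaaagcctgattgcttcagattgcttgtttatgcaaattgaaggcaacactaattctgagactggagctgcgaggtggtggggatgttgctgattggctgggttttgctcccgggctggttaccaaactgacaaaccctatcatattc

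The 8 genes had 10 promoters, 3 of them of Mag, of which 2 overlap and hold the same words. A SOX word was found in 6 of the 10 promoters, those of Ermn, Mobp, Cnp, Opalin and 2 of Mag, and in 25.2% of all 32851 promoters of this length. By gene this was 5 of 8. Mobp held 6 copies of ACAAAG. A MYRF word was found in 4 of the 10 promoters, those of Cnp, Mog and 2 of Mag, and in 5.93% of all promoters. By gene this was 3 of 8. The E-box words CAGCTG and CATATG were found in 0 of the 10 promoters and in 16.1% of all promoters. Mal, which had the largest difference at 5 d, held none of these words, and Ermn, which had the smallest, held 1 SOX word.

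The 9 genes differed widely in abundance. Mbp, myelin basic protein, which compacts the sheath, had a mean of 2885 CPM (counts per 1000000 counts) and ranked 15 among the 15648 genes by mean CPM. Mobp, a second basic protein of the cytoplasmic face, followed with 859 CPM and Cnp, a phosphodiesterase that keeps cytoplasmic channels in myelin open, with 399.9 CPM. The mean was 279 CPM for Mal, a proteolipid of lipid domains, 189 CPM for Mag, the adhesion protein facing the axon, and 154 CPM for Cldn11, the claudin of the tight junctions between myelin layers. Ermn, an actin-binding protein of the mature oligodendrocyte, reached 74.4 CPM, Mog, the immunoglobulin-like protein of the outer surface, 70.9 CPM, and Opalin, a sialylated membrane protein of oligodendrocytes, 25.7 CPM. The 9 genes together took between 0.23% and 0.877% of all counts of a mouse, with a median of 0.481%, and a median of 58.3% of that sum came from Mbp. Per kilobase of the median protein-coding transcript (GENCODE M21), the level was 1491 CPM for Mbp, 171 CPM for Mal, 20.5 CPM for Ermn and 13.99 CPM for Opalin, which again was lowest. Mobp reached 1725 CPM per kilobase, but its annotated transcripts run from 435 to 3286 bases, and this value depends on which of them is used.

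At 5 d, 5 of the 9 genes were called lower in rAAV-OVA than in rAAV-control mice, and none was called higher. A gene was called where edgeR's quasi-likelihood test gave a Benjamini-Hochberg adjusted p (FDR) of at most 0.05 and the Log2FC, the log2 ratio of rAAV-OVA to rAAV-control, was at least 0.66 in size. Of all 15648 genes, 4.67% were called lower at 5 d and 9.56% higher (14.2% in all). The median Log2FC of the 9 genes was -0.81, against -0.01 over all genes. Because the 9 genes were chosen with earlier results of these data known, these comparisons with all genes are descriptions only.

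Mal, which sorts lipids and proteins to the myelin membrane, showed the largest difference. The 4 rAAV-OVA mice at 5 d had 127, 175, 121 and 171 CPM of Mal, and the 4 rAAV-control mice 306, 239, 317 and 378 CPM. The groups did not overlap, and the highest rAAV-OVA mouse lay below the lowest control. The Log2FC was -1.23 ± 0.249 (SE), with an FDR of 0.000763 in edgeR's quasi-likelihood test.

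Mbp had 1806, 2219.7, 1412 and 1937 CPM in the 4 rAAV-OVA mice and 2594, 2228, 3019 and 4039.8 CPM in the 4 rAAV-control mice. The highest rAAV-OVA mouse and the lowest control nearly met, without overlap. The Log2FC of Mbp was -0.93 ± 0.258 (SE), and edgeR's quasi-likelihood test gave an FDR of 0.00878. Cnp had 261, 325, 255 and 303 CPM in rAAV-OVA mice against 429, 333, 448 and 536 CPM in rAAV-control mice, again without overlap. Its Log2FC was -0.81 ± 0.221 (SE), with an FDR of 0.00794 in edgeR's quasi-likelihood test.

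Among the surface proteins, Mog had 42.1, 53.4, 36.8 and 48.1 CPM in the rAAV-OVA mice at 5 d and 76.2, 55.1, 89.7 and 91.1 CPM in the rAAV-control mice. All rAAV-OVA mice were below all controls, by a narrow margin at the second control. The Log2FC of Mog was -1.05 ± 0.260 (SE), with an FDR of 0.00402 in edgeR's quasi-likelihood test. Opalin had 17.02, 21.2, 17.3 and 22.4 CPM in rAAV-OVA mice and 28.996, 20.02, 36.02 and 36.2 CPM in rAAV-control mice, so that the second control lay within the rAAV-OVA range. Its Log2FC was -0.997 ± 0.248 (SE), and the FDR in edgeR's quasi-likelihood test was 0.0042. Mag, the third surface protein, had 128 to 169 CPM in rAAV-OVA and 140.1 to 226 CPM in rAAV-control mice, a Log2FC of -0.43 ± 0.239 (SE) and an FDR of 0.18 in edgeR's quasi-likelihood test.

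Mobp and Cldn11 also overlapped between the groups and were not called. Mobp had 444 to 718 CPM in rAAV-OVA and 609 to 1038 CPM in rAAV-control mice, and its Log2FC was -0.65 ± 0.282 (SE). Cldn11 had 107 to 144 CPM against 128 to 223 CPM, and its Log2FC was -0.62 ± 0.271 (SE). Their FDR values in edgeR's quasi-likelihood test were 0.0827 and 0.087. Ermn had 82.4, 64.5, 60.9 and 79.4 CPM in rAAV-OVA mice and 67.5, 53.7, 63.8 and 81.6 CPM in rAAV-control mice, so that the ranges nearly coincided. Its Log2FC was -0.11 ± 0.206 (SE), with an FDR of 0.714 in edgeR's quasi-likelihood test.

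The groups did not overlap at 5 d for 4 of the 9 genes, Mbp, Mog, Cnp and Mal, all with rAAV-OVA lower, and the same held for 19.6% of all genes, while 21% of all genes were higher without overlap. The fitted differences are larger than the differences of the mouse values themselves, because the model holds 2 surrogate variables, estimated covariates for unlabelled variation. Without them, the Log2FC was -1.06 for Mal, -0.79 for Mog, -0.69 for Mbp and -0.64 for Opalin, and 2 of the 9 genes, Mal and Mog, were called by edgeR's quasi-likelihood test, beside 17.5% of all genes called in either direction. Cnp was then at -0.61, Mobp at -0.38, Cldn11 at -0.35 and Mag at -0.19, and these were not called. Ermn was then at 0.11, on the other side of 0, and was not called.

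**Figure D1:**
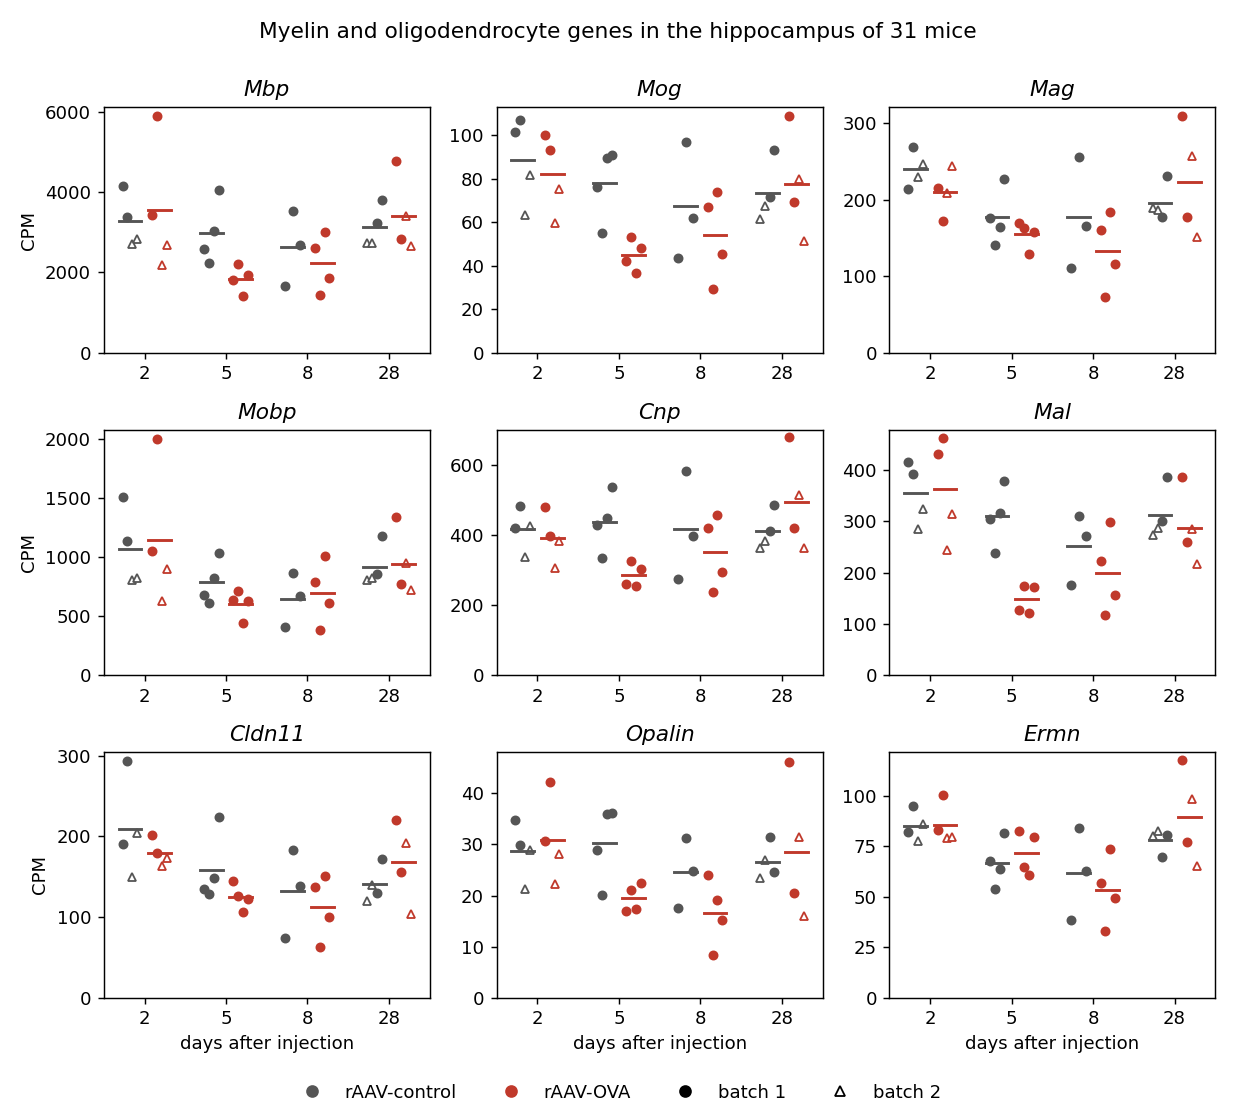
CPM (vertical axis, from 0) of each of the 9 genes by days after injection (horizontal axis), with 1 point per mouse, rAAV-control in grey and rAAV-OVA in red, circles for batch 1 and triangles for batch 2, and lines for group means. At 5 d the rAAV-OVA points of Mal, Mbp, Mog and Cnp lie below all rAAV-control points, and those of Ermn cover the same range as the controls.

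At 5 d, 1 rAAV-control mouse stood apart by its choroid plexus transcripts. Of 10 choroid plexus markers, 8 were called lower in rAAV-OVA mice at 5 d, among them Ttr, which encodes the thyroxine carrier transthyretin, with a Log2FC of -5.43 ± 1.69 (SE) and an FDR of 0.018 in edgeR's quasi-likelihood test. The sum of the 10 markers was 68.4, 62.1, 52.8 and 149.7 CPM in the rAAV-OVA mice and 150.8, 3903, 114.6 and 45.55 CPM in the rAAV-control mice, so that 1 control, replicate 2, stood far above the other 7 mice and another control was the lowest of all. Without replicate 2, 0 of the 10 markers were called in edgeR's quasi-likelihood test, and the count also fell to 1 without rAAV-OVA replicate 1. This control had the lowest mean level of the 9 myelin genes among the controls, and without it 6 of the 9 genes were called at 5 d, beside 12.3% of all genes. Control replicate 4, the deepest library with 57407902 counts, had the highest control value for each of the 9 genes. Without replicate 4, 3 of the 9 genes were called at 5 d, beside 15.8% of all genes. With the choroid plexus level as a further covariate, 5 of the 9 genes and 15.3% of all genes were called, with a Log2FC of -1.25 for Mal and -0.92 for Mbp. After group means were removed, the correlation of the choroid plexus level with the mean myelin level was r = 0.135 over the 31 mice, and with group means kept it was r = 0.453.

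At 2 d, 0 of the 9 genes were called, as were 0% of all genes in edgeR's quasi-likelihood test and 10 genes in DESeq2's Wald test, and 1428 genes had an unadjusted p below 0.05. The unadjusted p was 0.38 or higher for each of the 9. Mbp had 3424, 5881, 2192 and 2672 CPM in rAAV-OVA mice and 4152, 3387, 2708 and 2836 CPM in rAAV-control mice, and Mal 432, 462, 243 and 315 CPM against 416, 393, 286 and 324 CPM. The groups overlapped for all 9 genes, whereas 2.22% of all genes were higher and 1.94% lower without overlap. Log2FC values ran from -0.22 for Cldn11 to -0.02 for Ermn. Without the surrogate variables they ran from -0.22 for Cldn11 to 0.115 for Mbp, with 5 above 0 and 4 below. Within batch 1, 5 of the 9 genes were above and 4 below control by mean CPM, and within batch 2, 1 was above and 8 were below, with 2 mice per group in each batch.

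The batches differed at 2 d. The 4 mice of batch 1 had 3387 to 5881 CPM of Mbp and the 4 of batch 2 had 2192 to 2836 CPM, without overlap. The same held for Mog, Mobp, Mal and Opalin, which were higher in every mouse of batch 1. Mag ran from 172 to 268 CPM in batch 1 and from 209 to 246 CPM in batch 2. At 28 d, the batches overlapped for all 9 genes, and batch 1 was higher by mean log2 CPM for each of them, by 0.06 for Ermn to 0.39 for Mog.

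At 8 d, 1 of the 9 genes was called, Opalin, which was lower in rAAV-OVA mice, and 0.588% of all genes were called lower at this time, 9.36% higher and 9.94% in all. Opalin had 23.95, 8.29, 19.1 and 15.1 CPM in the 4 rAAV-OVA mice and 17.6, 31.3 and 24.7 CPM in the 3 rAAV-control mice, with overlap between the groups. All 9 genes overlapped, while 14.4% of all genes were higher and 11.9% lower without overlap. The Log2FC of Opalin was -0.71 ± 0.251 (SE), and the FDR of 0.0492 in edgeR's quasi-likelihood test lay just under the threshold. The exact two-sided permutation test on the 7 mice gave p = 0.229. The call held in 15 of 31 fits that left out 1 mouse each. It was lost without rAAV-OVA replicates 2 or 4 or rAAV-control replicates 2 or 3 at 8 d, and without single mice of each other time point, with an FDR of up to 0.137 in edgeR's quasi-likelihood test. Without rAAV-OVA replicate 2, whose Opalin level was the lowest, the Log2FC was -0.57.

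The other 8 genes had Log2FC values from -0.43 for Mal to -0.04 for Mobp at 8 d, and all 9 values were below 0, with a median of -0.34. Without the surrogate variables Mobp was at 0.10, and with the batch label beside them at 0.37. In both fits the other 8 genes were below 0. Mal had 223, 117, 299.8 and 156 CPM in rAAV-OVA mice against 175, 311 and 271 CPM in rAAV-control mice. Mbp had 2595, 1437, 3006 and 1867 CPM against 1664, 3535 and 2693 CPM. Both groups were widely spread: rAAV-OVA replicate 2 and rAAV-control replicate 1 had the lowest value of their group for each of the 9 genes. Without rAAV-OVA replicate 3, which had the highest value of its group for 8 of the 9 genes, 3 genes were called at 8 d, namely Opalin, Mal with a Log2FC of -0.84 and Mog with -0.75.

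At 28 d, 0 of the 9 genes were called in edgeR's quasi-likelihood test, with an unadjusted p of 0.246 or higher for each, while 4.86% of all genes were called lower and 12.7% higher (17.6% in all), and DESeq2's Wald test also called 0 of the 9. Mal had 387, 259.5, 285 and 216 CPM in rAAV-OVA mice against 274, 287, 302 and 387 CPM in rAAV-control mice. Mbp had 4762, 2824, 3410.5 and 2649 CPM against 2732, 2726, 3220.0 and 3806 CPM. The ranges overlapped for all 9 genes, against 15% of all genes higher and 14% lower without overlap. The spread was larger in rAAV-OVA mice for each of the 9 genes, which varied together. The share of all genes for which this held was not counted. The summed level of every marker list described below also covered a wider range in rAAV-OVA mice at 28 d. For the neuronal markers it ran from 3179 to 6632.5 CPM in rAAV-OVA and from 7401 to 8520 CPM in rAAV-control mice. The coefficient of variation of Opalin was 47.2% in rAAV-OVA and 13.3% in rAAV-control mice, and that of Ermn 25.7% and 7.42%. Log2FC values ran from -0.30 for Mal to 0.05 for Cnp, with 8 of 9 below 0. Without the surrogate variables 8 of 9 were above 0, from 0.04 for Mobp to 0.27 for Cnp, with Mal at -0.12, and 0 of the 9 genes were called. Within batch 1, 8 of the 9 genes were above and 1 below control by mean CPM, and within batch 2, 7 were above and 2 below. By mean log2 CPM, the count in batch 2 was 5 above and 4 below.

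**Figure D2:**
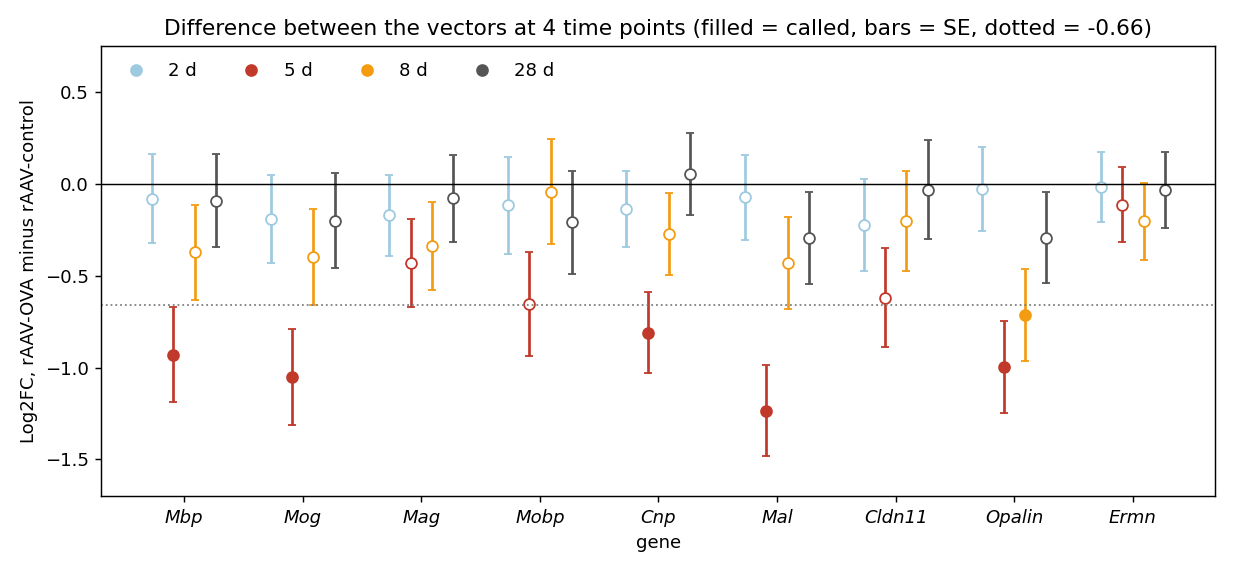
Log2FC of rAAV-OVA against rAAV-control (vertical axis) for the 9 genes (horizontal axis) at 2, 5, 8 and 28 d, with bars for the SE, filled points for called genes and a dotted line at -0.66. The points of 5 d lie lowest for 8 of the 9 genes, from -1.23 for Mal to -0.43 for Mag, and for Ermn all points lie between -0.20 and -0.02.

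The difference between time points was tested as an interaction in the same model. The response at 5 d was lower than that at 2 d for 2 of the 9 genes, Mal and Opalin, and 4.33% of all genes were called lower in this contrast, 9.98% higher and 14.3% in all. The difference of Log2FC values was -1.16 ± 0.336 (SE) for Mal, with an FDR of 0.0166, and -0.97 ± 0.335 (SE) for Opalin, with an FDR of 0.0415, both in edgeR's quasi-likelihood test. For Mbp and Mog it was -0.85 and -0.86, and these were not called, with an FDR of 0.0836 and 0.0837 in the same edgeR test. The call of Opalin was lost in 15 of 31 fits without 1 mouse, and its FDR was 0.15 without rAAV-OVA replicate 3 at 28 d in edgeR's quasi-likelihood test. The mice at 2 d came from 2 batches and those at 5 d from 1. With the batch label as covariate, 1 of the 9 genes was called, beside 17.6% of all genes. With the batch label beside the surrogate variables it was also 1, beside 14.3%.

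Between 28 and 5 d, the response differed for 0 of the 9 genes at the FDR threshold, and 6.18% of all genes were called (3.86% higher, 2.32% lower). All 9 differences were above 0, and 5 had an unadjusted p below 0.05, with the lowest FDR, 0.0567, for Cnp in edgeR's quasi-likelihood test. The difference was 0.86 ± 0.287 (SE) for Cnp and 0.94 ± 0.323 (SE) for Mal, and DESeq2's Wald test called 2 of the 9 genes and 8.06% of all genes. Between 8 and 5 d, 0 of the 9 genes were called against 0.179% of all genes (0.0575% higher, 0.121% lower). Mal alone had an unadjusted p below 0.05 there, with a difference of 0.80 ± 0.353 (SE) and an FDR of 0.645 in edgeR's quasi-likelihood test. Between 28 and 8 d, and between 28 and 2 d, 0 of the 9 genes were called against 0% and 19.7% of all genes (for 28 against 2 d, 13.2% higher and 6.56% lower), and in edgeR's quasi-likelihood test no unadjusted p was below 0.241. DESeq2's Wald test called 0 of the 9 genes in these 3 contrasts. The contrasts share the mice of the days they have in common.

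Within 1 vector, the 9 genes were compared between 28 and 2 d, days at which the batches are balanced. In rAAV-control mice, 0 of the 9 genes and 2.96% of all genes were called (0.134% higher, 2.82% lower), and Log2FC values of 28 d against 2 d ran from -0.46 ± 0.253 (SE) for Cldn11 to 0.13 ± 0.241 (SE) for Mbp. In rAAV-OVA mice, 0 of the 9 genes and 16.1% of all genes were called (11.4% higher, 4.75% lower), and the values ran from -0.27 ± 0.266 (SE) for Cldn11 to 0.28 ± 0.219 (SE) for Cnp. The lowest unadjusted p in edgeR's quasi-likelihood test was 0.0798 in rAAV-control and 0.21 in rAAV-OVA mice, and DESeq2's Wald test called 0 of the 9 genes in both.

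The lowest group mean of each gene fell in rAAV-OVA mice, at 5 d for Mbp, Mog, Mobp, Cnp and Mal and at 8 d for Mag, Cldn11, Opalin and Ermn. For Mbp the group means ran from 1844 ± 336 CPM (SD, n = 4) in rAAV-OVA mice at 5 d to 3543 ± 1639.6 CPM (SD, n = 4) in rAAV-OVA mice at 2 d. For Mal they ran from 149 ± 28.2 CPM (SD, n = 4) in rAAV-OVA at 5 d to 363 ± 102 CPM (SD, n = 4) in rAAV-OVA at 2 d. Ermn ran from 53.2 ± 16.8 CPM (SD, n = 4) in rAAV-OVA at 8 d to 89.6 ± 23.1 CPM (SD, n = 4) in rAAV-OVA at 28 d.

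Averaged over the 9 genes as log2 CPM, the level was 8.01 ± 0.231 (SD) in rAAV-control mice at 2 d, 7.96 ± 0.295 in rAAV-OVA at 2 d, 7.90 ± 0.433 in rAAV-OVA at 28 d and 7.81 ± 0.165 in rAAV-control at 28 d. It was 7.78 ± 0.306 in rAAV-control at 5 d, 7.55 ± 0.542 in rAAV-control at 8 d, 7.28 ± 0.185 in rAAV-OVA at 5 d and 7.27 ± 0.547 in rAAV-OVA at 8 d. In this order, each group differed from the next by less than the larger of the 2 SDs. The rAAV-OVA mice at 5 d ran from 7.02 to 7.43 and the rAAV-control mice from 7.41 to 8.14, so that the averages overlapped slightly, and the ranges at 8 d were 6.55 to 7.78 and 6.98 to 8.05.

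**Figure D3:**
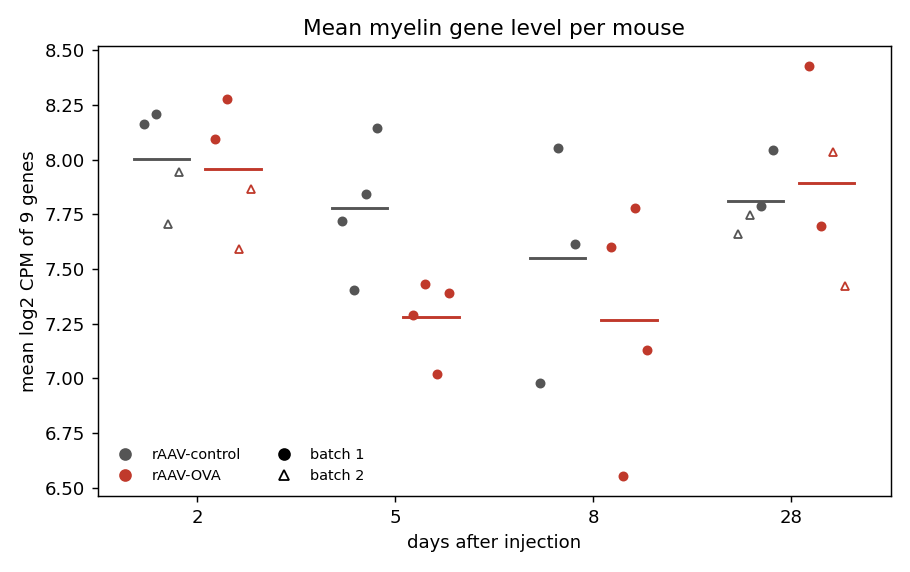
Mean log2 CPM of the 9 genes (vertical axis, not starting at 0) per mouse by days after injection (horizontal axis), rAAV-control in grey and rAAV-OVA in red, circles for batch 1 and triangles for batch 2, and lines for group means. The rAAV-OVA mice at 5 d sit between 7.02 and 7.43, and the groups at 8 d are the most widely spread, from 6.55 to 8.05.

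The 9 genes varied together among mice. After group means were removed, Pearson's r between 2 of the genes ran from 0.616 for Mag and Mobp to 0.982 for Mbp and Mobp over the 36 pairs and 31 mice, with a median of 0.836. Mog and Cnp had an r of 0.967, and Mag was closest to Cldn11 with 0.896. The mice come from the same 2 batches. The mean level of the 9 genes had an r of -0.0363 with the log2 of the total counts and of 0.457 with the second surrogate variable.

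Among the 10 genes whose level followed the mean of the 9 most closely, by Pearson's r over 31 mice after removal of group means, were Pllp (0.952), Tspan2 (0.942), Lpar1 (0.931), Septin4 (0.924), Ppp1r14a (0.924), Bcas1 (0.911), Cryab (0.901), Prr18 (0.901) and Tnni1 (0.893). Pllp, plasmolipin, had a Log2FC of -0.95 and Septin4, a septin scaffold of the sheath, of -0.95. Lpar1, a receptor for lysophosphatidic acid, had a Log2FC of -0.57 and was not called because it fell short of 0.66. Cryab, a small heat shock protein, had -0.17 at 5 d, was not called, and followed the 9 genes less closely when group means were kept (r = 0.613).

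Further genes of the oligodendrocyte were compared at 5 d by list, each list beside the 4.67% of all genes called lower. Of 17 other genes of myelin structure tested, 6 were called lower and 0 higher, with a median Log2FC of -0.56. Among them were Pllp, Septin4, Tspan2 (-0.68), a tetraspanin of oligodendrocytes, and Gjc3 (-0.80), a connexin. Of 8 enzymes of myelin lipid synthesis, 4 were called lower, 0 higher and 4 were not called, with a median Log2FC of -0.57. Those called were Ugt8a (-0.66), which makes galactosylceramide, Fa2h (-0.92), which hydroxylates its fatty acid, Aspa (-0.89), which frees acetate from N-acetylaspartate, and the elongase Elovl7 (-1.06). Of 18 other genes of mature oligodendrocytes, 6 were called lower, 0 higher and 12 were not called, with a median Log2FC of -0.61. Among those called were Gpr37 (-0.75), Plekhh1 (-1.01), Tmem125 (-1.09), Prr18 (-0.96) and S1pr5 (-0.82). The sixth, Enpp2, had -2.33 ± 0.802 (SE) and is also a gene of the choroid plexus.

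Genes of earlier stages and of the lineage were compared at 5 d in the same way. Of 10 transcription factors of the lineage, Olig1, Olig2, Sox10 and Myrf among them, 0 were called, with a median Log2FC of -0.20. Of 9 genes of oligodendrocyte precursors, such as Pdgfra and Cspg4, 0 were called, with a median of -0.17. Of 6 genes of newly formed oligodendrocytes, 2 were called lower, Bmp4 (-0.96), a secreted signal of the committed precursor, and Enpp6 (-1.07), a choline phosphodiesterase. A difference between these lists and the 9 genes was not tested. The summed level of the precursor genes ran from 659 to 722.8 CPM in rAAV-OVA and from 586 to 858 CPM in rAAV-control mice.

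At 8 d, 1 of the 17 tested genes of myelin structure was called lower, and the median Log2FC of that list was -0.33. Of the 8 lipid enzymes and the 18 other mature genes, 0 were called. Of all genes, 0.588% were called lower at 8 d and 9.36% higher. At 28 d, 0 genes of these lists were called lower, beside 4.86% of all genes, and 12.7% of all genes were called higher. Of the 17 genes of myelin structure, 1 was called higher, Cd9 (0.94), a tetraspanin found in many cell types. Of the 18 other mature genes, 1 was called higher, Apod (1.39), a lipid carrier. Of the 10 transcription factors, 1 was called higher at 28 d, Tcf7l2 (0.89), which is also in the list of thalamic markers. Of the 9 precursor genes, 1 was called higher, Cacng4 (0.83). At 2 d, 0 genes of these lists were called.

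**Figure D4:**
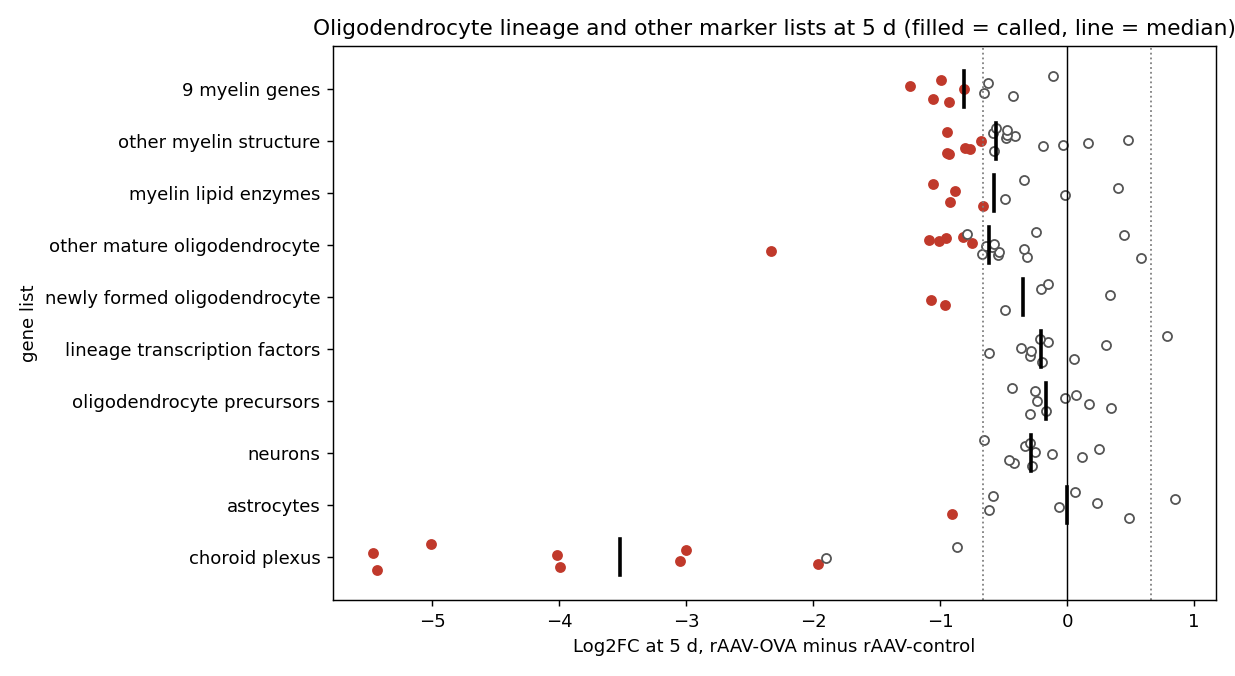
Log2FC of rAAV-OVA against rAAV-control at 5 d (horizontal axis) for each tested gene of 10 lists (vertical axis), with filled red points for called genes, black bars for list medians and dotted lines at 0.66 in both directions. The lists of mature oligodendrocytes have medians from -0.81 to -0.56, those of transcription factors and precursors -0.20 and -0.17, and the choroid plexus list -3.52, which was -1.05 without rAAV-control replicate 2.

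Of 8 genes known from oligodendrocytes in inflamed tissue, 7 were called higher at 5 d, 5 at 8 d and 7 at 28 d, beside 9.56%, 9.36% and 12.7% of all genes. At 5 d, the Log2FC was 1.61 for Serpina3n, a protease inhibitor, 1.92 for C4b, a complement component, 2.29 for Klk6, a protease of oligodendrocytes, and 3.52 for Socs3, an inhibitor of cytokine signalling. B2m (2.62) and H2-D1 (2.84), chains of MHC class I, are expressed by most cells, and Serpina3n and C4b also by astrocytes. Their cell of origin cannot be told apart in bulk RNA. The level of this list had an r of 0.617 with the mean of the 9 myelin genes over 31 mice with group means removed and of -0.0614 with group means kept.

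Markers of other cells were counted in the same way, with 0 called at 2 d. The summed level of 10 neuronal markers ran from 5993 to 6676 CPM in rAAV-OVA and from 7649 to 9432 CPM in rAAV-control mice at 5 d, with 0 of 10 called, and 5 of 10 were called lower at 28 d, beside 4.86% of all genes, among them Rbfox3 (-0.77) and Slc17a7 (-1.26). Of 8 microglial markers, 5 were called higher at 5 d, 3 at 8 d and 7 at 28 d, beside 9.56%, 9.36% and 12.7% of all genes. Of 8 astrocyte markers, 1 was called lower at 5 d, Gja1 (-0.91), beside 4.67% of all genes. The other 7 were not called, and the median Log2FC of the list was -0.0002. At 28 d, 2 astrocyte markers were called higher, Gfap (1.09) and Sox9 (0.76), beside 12.7% of all genes. Of 8 T cell markers, Cd8a and Gzmb were in the table, and both were called higher at 5, 8 and 28 d, with a summed level of 54.8 to 88.2 CPM in rAAV-OVA and 0.179 to 1.68 CPM in rAAV-control mice at 5 d. With group means removed, the mean level of the 9 myelin genes had an r of 0.682 with microglial, 0.586 with astrocyte, 0.356 with T cell and -0.538 with neuronal markers over 31 mice that share batches. With group means kept, r was -0.0198, 0.211, -0.402 and -0.166 in the same order. Their part in the levels of the 9 myelin genes was not tested.

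Schwann cells make the myelin of peripheral nerves, and the thalamus lies close to the hippocampus. Of 8 Schwann cell markers, 5 were tested, and 1, Gldn, was called higher at 5 d, with a Log2FC of 2.29, beside 9.56% of all genes. The summed level of the 5 genes ran from 79.3 to 95.9 CPM in rAAV-OVA and from 88.2 to 100.04 CPM in rAAV-control mice. Of 8 thalamic markers, 0 were called at 5 d, beside 14.2% of all genes. Their summed level ran from 159.7 to 177.8 CPM in rAAV-OVA and from 164 to 183 CPM in rAAV-control mice. At 28 d, 4 of the 8 thalamic markers were called higher, beside 12.7% of all genes, with Tcf7l2 of the transcription factor list among them. The 9 myelin genes were not called at 28 d.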

How the data were processed

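Libraries of mRNA from 31 left hippocampi were sequenced. After trimming (fastp), the authors quantified GENCODE M29 transcripts by salmon 1.8.0, corrected for GC content, and deposited estimated counts per gene, whole and not normalized. Every gene reached 15 counts in 15 mice or more. Of these genes, 824 had no symbol. Both deposited tables hold the same counts (0 cells differed).

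Groups and batch were taken from the labels, and replicates are separate mice, numbered in accession order. CPM were scaled by TMM. edgeR 4.0.16 in R 4.3.3 (robust quasi-likelihood F-test) was run on all 15648 genes and 8 groups with 2 surrogate variables from sva 3.50.0, as the study used 2. Called genes had an FDR (Benjamini-Hochberg) not above 0.05 with a Log2FC of 0.66 or more in size. Averages of log2 CPM used a prior count of 2. Alternatives used DESeq2 1.42.0, ashr 2.2.63, limma 3.58.1 (voom), other covariates, filters and samples, an exact permutation test and each mouse left out. The steps were tested on simulated data. P-values measure the spread between mice, and totals limit precision little at these levels.

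The genes and lists were chosen with earlier results of these data known. Named genes are the 9 genes, called or defining genes of the lists, and the 10 genes most alike. Promoters come from RefSeq (GRCm38.p6), a build other than that of the counts, and carry no values of these files. Some genes of the lists are not reported here by name.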

Additional observations from a re-analysis of the deposited data

Results flagged for a closer look

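Mobp in rAAV-control mice at 28 d held 1 mouse far from the others. Replicate 4 had 1184 CPM and the other 3 mice 806 to 856 CPM, a gap of 0.867 of the whole range, above Dixon's critical value for 4 mice. This was 1 of 63 such checks over 9 genes and 7 groups of 4 mice, and chance flags about 1 in 20.

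The response of Mal differed between time points, with a Log2FC at 5 d lower than that at 2 d by -1.16 (interaction test of edgeR, FDR 0.0166). The response of Opalin differed between the same time points by -0.971 (interaction test of edgeR, FDR 0.0415), and this call was lost in 15 of 31 fits that left out 1 mouse.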

How the results depend on the processing

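Each count of called genes was recomputed with other tests, covariates, normalization, filters and samples. The 5 genes called at 5 d became 4 with DESeq2 and ashr, 2 without covariates, 3 with the batch label as covariate, 3 with the mice of the day alone and 3 in the exact permutation test, read at an unadjusted p of 0.05 with the same limit on Log2FC, which Cnp missed at -0.596 (p = 0.0286 in this exact test, the smallest that 4 against 4 mice allow). The 1 gene called at 8 d became 0 with DESeq2 and ashr, without covariates, with the batch label as covariate, with the batch label beside the surrogate variables, with the mice of the day alone and in the exact permutation test. The 2 genes whose response differed between 5 and 2 d became 1 with DESeq2 and ashr, without covariates, with the batch label as covariate and with the batch label beside the surrogate variables, and 3 with the filter of 15 counts in every mouse. The 0 genes whose response differed between 28 and 5 d became 2 with DESeq2's Wald test and with the filter of 15 counts in every mouse. The cause was not tested. Leaving out 1 mouse at a time gave counts that ran from 3 to 7 at 5 d, 0 to 3 at 8 d, 1 to 4 for 5 against 2 d and 0 to 2 for 28 against 5 d (Cnp, also with Mal), and stayed at 0 for the other 7 comparisons. At 5 d the 3 was without rAAV-control replicate 4, where Mbp and Cnp passed the FDR at Log2FC values of -0.63 (-0.635 and -0.633), 4 genes were called without rAAV-OVA replicate 3 at 28 d, 6 without rAAV-control replicate 2 at 5 d or replicate 1 at 8 d, and the 7 was without rAAV-OVA replicate 3 at 8 d, when Mobp and Cldn11 were also called. Mal and Mog were called at 5 d in all 12 alternatives and all 31 fits without 1 mouse. No called value changed sign in any of 4113 recomputed values, and 414 values that were not called did.

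Over all genes, 1556 were called at 8 d, but 505 without rAAV-control replicate 3, 836 with the filter of 15 counts in every mouse and 0 with the 7 mice of the day alone. At 28 d, 2750 genes were called, 1751 within batch 1 and 402 within batch 2. Leaving out 1 mouse moved the share of all genes called from 3.23% to 11.9% at 8 d, 11.7% to 16.4% at 5 d and 11.2% to 20.5% at 28 d. For 28 against 5 d it moved from 1.48%, without rAAV-OVA replicate 4 at 2 d, to 9.18%, and in rAAV-control mice between 28 and 2 d from 1.01% to 4.35%. Without the limit on Log2FC, 4566 genes were called at 5 d, 2869 at 8 d and 5233 at 28 d. At 2 d, 10 genes were called with DESeq2 and 0 with edgeR, where 1428 had an unadjusted p below 0.05. No paired analysis was possible because no number or name is shared by mice of different groups. The choroid plexus level as covariate was chosen after seeing the data. Depth limited these values little, with at least 199 counts for each gene in each mouse.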
